A study of Mus musculus with 6 samples.

Results

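The Shank and Homer genes encode the scaffold that lies beneath glutamate receptors at excitatory synapses. All 6 genes of both families, Shank1, Shank2, Shank3, Homer1, Homer2 and Homer3, were taken by name from a count table of 21958 protein-coding genes, and each name matched 1 gene. The RNA came from synaptoneurosomes, a brain fraction of pinched-off synapses with both presynaptic and postsynaptic parts, made from hippocampus and adjacent cortex of FVB mice aged 6 to 8 weeks. In the polyribosome group (n = 3 libraries), synaptoneurosomes received NMDA (50 µM) and glutamate (10 µM) for 30 s, then the NMDA receptor antagonist APV (120 µM) for 20 min, and RNA was taken from pooled light and heavy polyribosomes of a sucrose gradient. In the total RNA group (n = 3), RNA was taken from synaptoneurosomes that were not stimulated. Per the study's methods, stimulated samples were incubated warm, while unstimulated samples stayed on ice with the protein synthesis inhibitor cycloheximide. Stimulation, these conditions and the fraction changed together, so they cannot be told apart in any value below. Each preparation pooled tissue of several male mice, and libraries of 1 replicate number were treated as aliquots of 1 preparation.

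Shank proteins are large multidomain scaffolds. Through a PDZ domain they bind the SAPAP proteins, which in turn bind PSD-95 and so reach the NMDA receptors, and through a proline-rich stretch they bind Homer. Homer proteins carry an EVH1 domain that holds group I metabotropic glutamate receptors, inositol trisphosphate receptors, ryanodine receptors and dynamin 3, and long Homer forms join into tetramers through a coiled coil. The Homer1 gene also gives the short, activity-induced form Homer1a, which lacks the coiled coil and competes with the long forms. Shank1 mRNA is a textbook dendritic mRNA, while loss of SHANK3 in people is linked to Phelan-McDermid syndrome.

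Since the ribosomes of a polyribosome begin translation at a start codon, the sequence around the start codon of the principal annotated isoform is shown for 5 of the genes. It holds 9 bases before the ATG and 4 after it. The annotated principal isoform of Shank3 has 0 bases before its coding sequence, so none is shown for it. The ATG is in capitals. The sequences are given 5′ to 3′ on the coding strand, from Gencode vM21 transcripts on GRCm38.
Shank1, chr7:44312707-44312709, plus strand: ggccccacgATGaccc
Shank2, chr7:144031264-144031266, plus strand: ccaggcaccATGccac
Homer1, chr13:93305298-93305300, plus strand: ttgggcaaaATGgggg
Homer2, chr7:81706761-81706763, minus strand: gcgccggagATGggag
Homer3, chr8:70285302-70285304, plus strand: acctgaccaATGtcca
The coordinates are those of the start codon itself. The third base before the ATG was a purine in Shank1, Shank2, Homer1 and Homer2 and a C in Homer3. A purine stood there in 84.7% of 19965 protein-coding genes. The base right after the ATG was a G in Homer1 and Homer2, as in 49.6% of those genes.

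The genes differ widely in length and base composition. Homer1 (ENSMUSG00000007617, chr13:93303757-93404129, plus strand) has the lowest GC content of the 6, 36.9% of its longest transcript, which puts it at percentile 0.613 of the genes tested. Shank1 (ENSMUSG00000038738, chr7:44310253-44358351, plus strand), Shank3 (ENSMUSG00000022623, chr15:89499623-89560261, plus strand) and Homer3 (ENSMUSG00000003573, chr8:70282827-70294361, plus strand) have a GC content of 61.4%, 62.4% and 60.2%, all above percentile 95 (97.5, 98.3 and 95.1). Shank2 (ENSMUSG00000037541, chr7:144001928-144424494, plus strand) lies at 55.0% and Homer2 (ENSMUSG00000025813, chr7:81600481-81706925, minus strand) at 44.4%, against a median of 50.3% over the genes tested. The principal coding sequences run to 6501, 5523 and 5190 bases in Shank1, Shank2 and Shank3 and to only 1062, 1062 and 1068 bases in Homer1, Homer2 and Homer3.

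Counts per library summed to 5294482 to 7361580 in the polyribosome group and 1044955 to 3738022 in total RNA, the lowest being total RNA replicate 3. The Shank genes and Homer2 had at least 259 counts in every library, and Homer1 at least 139. Homer3 had 86 to 114 counts on polyribosomes but 32, 35 and 11 in total RNA, so its values there are the least precise. All 6 genes were among the 12255 that passed the expression filter. Replicates of 1 group differed by more than sampling noise, with a chi-square per degree of freedom of 3.58 to 20.9.

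Levels are given as CPM, counts scaled to library size with TMM normalization. Such values are shares of a library, and no spike-in was used in scaling. A difference between groups is therefore relative to the other genes (median log2 fold change 0.0) and gives no absolute amount of mRNA on polyribosomes. Shank1 was the most abundant of the 6, with 983, 1350 and 3080 CPM in total RNA replicates 1, 2 and 3. On polyribosomes it stood at 1920, 1570 and 3210 CPM in the same order. The group means were 1800 ± 1120 CPM in total RNA and 2240 ± 863 CPM on polyribosomes (SD, n = 3 each), and the groups overlapped, because replicate 3 was high in both. Shank2 stood at 343, 409 and 619 CPM in total RNA and at 481, 411 and 577 CPM on polyribosomes, where the polyribosome values lay within the range of total RNA. For Shank3 the values were 305, 356 and 652 CPM in total RNA and 601, 437 and 697 CPM on polyribosomes. These groups overlapped too, since total RNA replicate 3 exceeded polyribosome replicates 1 and 2.

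Homer1 lay lower on polyribosomes than in total RNA. It stood at 185, 200 and 133 CPM in total RNA replicates 1, 2 and 3 and at 95.4, 112 and 66.7 CPM on polyribosomes, so each total RNA library lay above all polyribosome libraries. Homer2, a family member with its own coiled coil, stood at 199, 179 and 248 CPM in total RNA. Its polyribosome values were 190.0, 153 and 149 CPM, and the groups overlapped. Homer3 was the rarest, at 7.95, 11.7 and 10.5 CPM in total RNA and 13.8, 17.2 and 17.7 CPM on polyribosomes, where every polyribosome library lay above every total RNA library. Groups without overlap were thus found for 2 of the 6 genes, Homer1 and Homer3. Over all genes tested, 36.2% had groups without overlap, 17.4% with higher and 18.9% with lower values on polyribosomes.

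**Figure D1:**
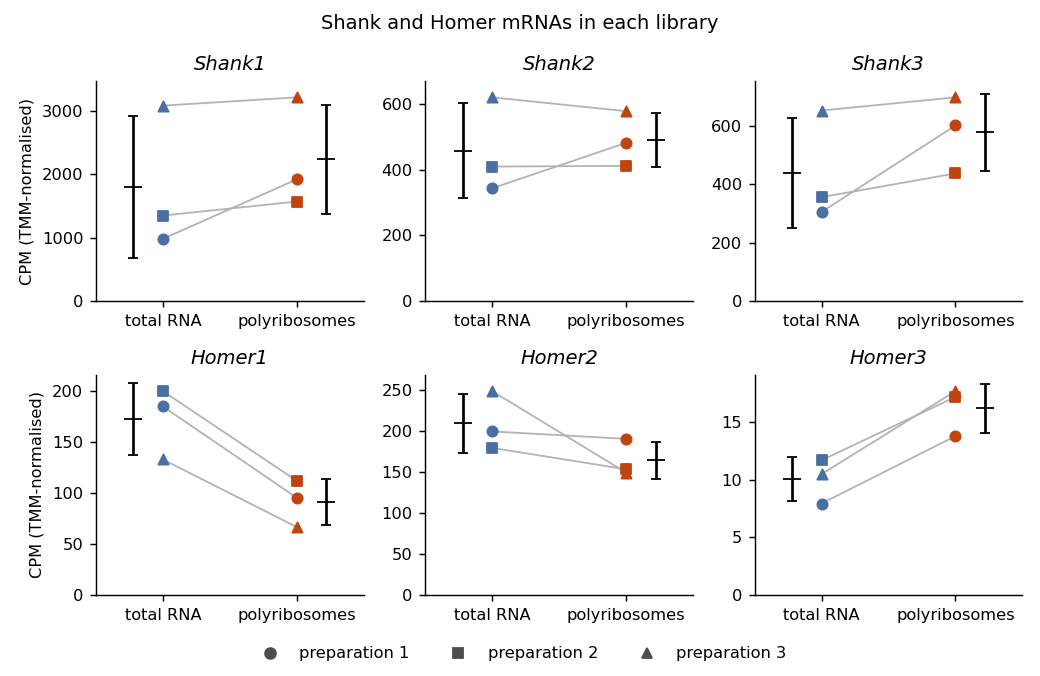
CPM of each gene (linear axis from 0, TMM-normalised) in total RNA (blue) and on polyribosomes (orange). Marker shapes give the preparation, grey lines join libraries of 1 preparation, and bars give the mean and SD of 3 libraries. Homer1 went down on every line and its groups did not overlap, while preparation 3 was the highest in both groups for Shank1, Shank2 and Shank3.

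The polyribosome to total RNA difference was tested with edgeR's quasi-likelihood test over all 12255 genes, with a Benjamini-Hochberg adjusted p below 0.01 as the threshold. Without pairing of preparations, none of the 6 genes passed, against 3.07% of all genes tested (0.71% higher and 2.36% lower on polyribosomes). Unadjusted p-values were under 0.05 for 2 genes, Homer1 and Homer3. Homer1 had the largest difference, with a log2 fold change of -0.93 (SE 0.21, 95% interval -1.37 to -0.48, adjusted p = 0.0127). Its mean CPM on polyribosomes was 0.53 of that in total RNA. Homer1 passed in the same comparison with DESeq2 (-0.91, adjusted p = 0.00137), against 7.14% of the 9712 genes given an adjusted p there. It also passed in edgeR without the expression filter (-0.9, adjusted p = 0.00125), against 6.23% of 16736 genes. Homer3 had a log2 fold change of 0.72 (SE 0.23, interval 0.23 to 1.2, adjusted p = 0.0464), with a mean CPM 1.61 times that in total RNA. For Shank3 the log2 fold change was 0.41 (SE 0.26, interval -0.14 to 0.96, adjusted p = 0.289) and for Shank1 0.31 (SE 0.35, interval -0.43 to 1.06, adjusted p = 0.574). Shank2 was at 0.11 (SE 0.22, interval -0.36 to 0.57) and Homer2 at -0.34 (SE 0.18, interval -0.72 to 0.04), with adjusted p-values of 0.774 and 0.207. The intervals of Shank1 and Shank3 leave room for a difference of about the size of Homer1's, in the other direction. In bulk RNA, fewer cells or terminals of a type and less RNA in each cannot be told apart.

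Comparing libraries within a preparation removed most of the spread of Homer1. Its log2 ratio of polyribosomes to total RNA was -0.95, -0.83 and -1.0 in preparations 1, 2 and 3 (mean -0.93 ± 0.09, SD). Homer3 was at 0.8, 0.55 and 0.75 (0.7 ± 0.13). The Shank genes varied more between preparations. Shank1 was at 0.97, 0.23 and 0.06, Shank3 at 0.98, 0.3 and 0.1, and Shank2 at 0.49, 0.01 and -0.1, so that preparation 1 held most of the excess on polyribosomes. Homer2 was at -0.07, -0.22 and -0.74, lowest in preparation 3. Homer1 and Homer2 were thus lower in all 3 preparations, as were 30.6% of all genes tested. Shank1, Shank3 and Homer3 were higher in all 3, as were 30.2% of all genes.

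With the replicate number as a block, 4 of the 6 genes passed the threshold, against 25.0% of all genes tested (11.8% higher and 13.2% lower). Homer1 was lower on polyribosomes by a log2 fold change of -0.92 (SE 0.12, adjusted p = 1.38e-09). Shank3 at 0.46 (SE 0.13, adjusted p = 0.00273), Homer3 at 0.68 (SE 0.2, adjusted p = 0.00474) and Shank1 at 0.42 (SE 0.13, adjusted p = 0.00892) were higher. Shank2 at 0.13 (SE 0.13, interval -0.11 to 0.38, adjusted p = 0.43) and Homer2 at -0.33 (SE 0.13, interval -0.57 to -0.08, adjusted p = 0.0329) did not pass. The test moderates the spread of each gene over all genes tested. The log2 ratios of the 3 preparations had an SD of 0.48 for Shank1 and 0.46 for Shank3, so these 2 calls do not show that the preparations were alike. The calls of the 3 higher genes did not hold when preparation 1 or 2 was left out, which also leaves fewer libraries. Without preparation 1, Shank1 was at 0.13, Shank3 at 0.18 and Homer3 at 0.6, and without preparation 2 they were at 0.52, 0.55 and 0.78, and none of the 3 passed in either case. Homer1 passed without any 1 of the preparations, at -0.92, -0.97 and -0.9.

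The differences moved with base composition. Across 12238 genes, which are not independent replicates, the log2 fold change rose with GC content (Spearman's rho 0.54) and fell with length (-0.37). Homer1, the most AT-rich of the 6, was the lowest on polyribosomes, and the GC-rich Homer3, Shank3 and Shank1 were the highest. An offset for GC content of the longest transcript and for merged exon length was then set in each library, and no other length was tried in it. With this offset, none of the 6 passed with the block, against 15.0% of all genes tested. Homer1 then had a log2 fold change of -0.23 (adjusted p = 0.131), Homer3 of 0.3 (adjusted p = 0.293), Shank1 of 0.22 (adjusted p = 0.252) and Shank3 of 0.19 (adjusted p = 0.266). Shank2 was at 0.14 and Homer2 at 0.07. With the offset but no block the 6 values lay between -0.24 and 0.3, and none passed, against 0.964% of all genes. Whether GC content and length stand for library preparation or for properties of the mRNAs was not tested.

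**Figure D2:**
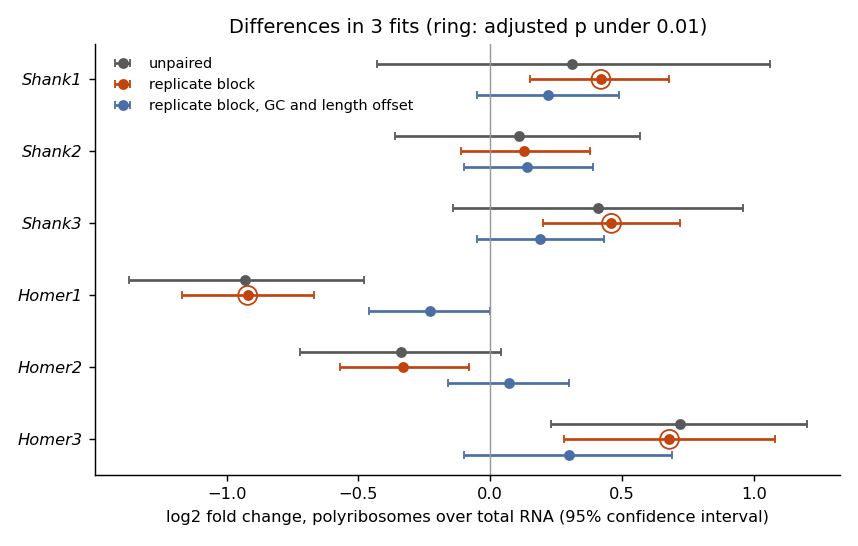
Log2 fold change of polyribosomes over total RNA for each gene, with its 95% confidence interval, without pairing (grey), with the replicate block (orange), and with the block and the GC and length offset (blue). Rings mark an adjusted p under 0.01, and are seen for Shank1, Shank3, Homer1 and Homer3 in the blocked fit. Homer1 moved from -0.92 to -0.23 with the offset.

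The 3 Shank mRNAs shared a second pattern. In both groups, replicate 3 had the highest CPM of Shank1, Shank2 and Shank3. The same was true of 23.5% of all genes tested. For Shank1, replicate 3 was 2.65 times the mean of replicates 1 and 2 in total RNA and 1.84 times on polyribosomes. For Shank3 these ratios were 1.97 and 1.34, and for Shank2 they were 1.65 and 1.29. Homer1 was lowest in replicate 3 in both groups, as were 23.0% of all genes, at 0.694 and 0.642 times the mean of the other two. Homer3 was close to level, at 1.07 and 1.14 times.

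A test of the replicate term of the blocked edgeR fit, added after these values were seen, passed for 4 of the 6 genes, against 8.74% of all genes tested. The adjusted p was 2.75e-10 for Shank1, 1.33e-04 for Shank3, 0.00246 for Homer1 and 0.00516 for Shank2. For Homer3 it was 0.308 and for Homer2 0.459. With the GC and length offset only Shank1 passed (adjusted p = 2.54e-04), against 6.08% of all genes. Replicate 3's deviation also rose with GC content across genes, with a Spearman's rho of 0.42 on polyribosomes and 0.32 in total RNA, and total RNA replicate 3 was the shallowest library.

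Ratios of 2 members inside a library do not depend on library size. They were not adjusted for GC content and length. Shank1 counts were 3.22, 3.78 and 4.73 times Shank3 counts in total RNA replicates 1, 2 and 3 and 3.2, 3.6 and 4.61 times on polyribosomes. The ratio was thus nearly the same in both fractions of each preparation, with a mean log2 difference of -0.04 ± 0.03 (SD of 3 pairs), although it varied between preparations. Shank2 counts were 1.12, 1.15 and 0.95 times those of Shank3 in total RNA and 0.801, 0.941 and 0.828 times on polyribosomes. That is a log2 difference of -0.33 ± 0.15, without overlap of the groups. Homer1 counts were 23.2, 17.0 and 12.6 times those of Homer3 in total RNA and 6.91, 6.54 and 3.77 times on polyribosomes, a log2 difference of -1.63 ± 0.21, again without overlap. Homer3 counts in total RNA were only 32, 35 and 11. Homer1 and Homer3 also differ in GC content, at 36.9% and 60.2%. With the block and the GC and length offset, their log2 fold changes were -0.23 and 0.3. The Shank3 to Homer1 ratio was 1.65, 1.78 and 4.89 in total RNA and 6.3, 3.89 and 10.5 on polyribosomes, higher in each pair by a mean log2 of 1.38 ± 0.47, though its groups overlapped. In 2-sided exact permutation tests of the 15 ratios, 3 against 3 libraries can give no p below 0.1, and no adjusted p was below 0.25.

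**Figure D3:**
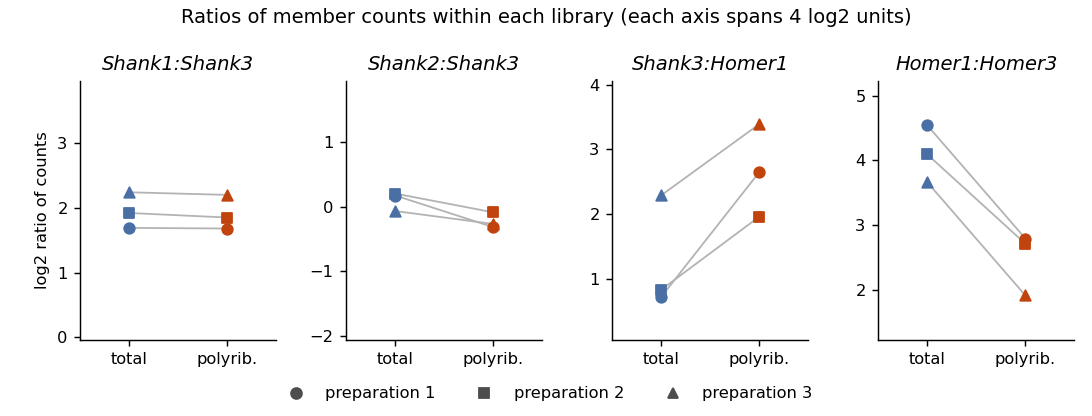
Log2 ratios of counts of 2 genes within each library, in total RNA (blue) and on polyribosomes (orange), with lines joining libraries of 1 preparation. Each axis spans 4 log2 units. The Shank1 to Shank3 lines are flat, with a mean difference of -0.04, and the Homer1 to Homer3 lines drop by a mean of -1.63. The ratios were not adjusted for GC content and length.

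Levels of different genes were compared per kilobase of merged exons. Shank1 led with 184 ± 114 CPM per kilobase in total RNA and 228 ± 87.8 on polyribosomes (SD, n = 3 each), at percentile 98.7 of the genes tested. Shank3 followed with 57.4 ± 24.6 and 75.8 ± 17.2, and Shank2 with 45.4 ± 14.3 and 48.7 ± 8.27. Shank3 was above Shank2 in all 6 libraries, though their ranges overlapped in both groups. Shank1 made up 57.5% to 68.7% of the summed Shank level per kilobase, depending on the library.

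The Homer genes lay lower on this scale. Homer2 was at 18.7 ± 3.22 CPM per kilobase in total RNA and 14.7 ± 2.0 on polyribosomes, and Homer1 at 15.0 ± 3.02 and 7.95 ± 2.01. In total RNA these genes overlapped, and on polyribosomes every Homer2 value was above every Homer1 value. Homer3 was lowest, at 3.53 ± 0.678 and 5.69 ± 0.743, overlapping Homer1 on polyribosomes. Homer1 made up 43.8%, 46.3% and 30.9% of the summed Homer level in total RNA replicates 1, 2 and 3 and 27.5%, 33.1% and 22.9% on polyribosomes. The order of the Homer genes, and of both families, depends on the length used, since merged exons of Homer1 (11508 bases) and Homer2 (11168 bases) far exceed their principal isoforms (2765 and 1634 bases). Per kilobase of the longest transcript, Homer1 averaged 30.2 in total RNA and 16.0 on polyribosomes against 19.0 and 14.9 for Homer2, so the order of this pair was reversed, without overlap in total RNA and with overlap on polyribosomes. Per kilobase of principal isoform, Homer2 was at 109 to 152 CPM in total RNA and 91.2 to 116 on polyribosomes, and Homer1 averaged 62.4 and 33.1, against 61.4 and 81.1 for Shank3. Shank1 stayed first by its mean and Homer3 last.

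**Figure D4:**
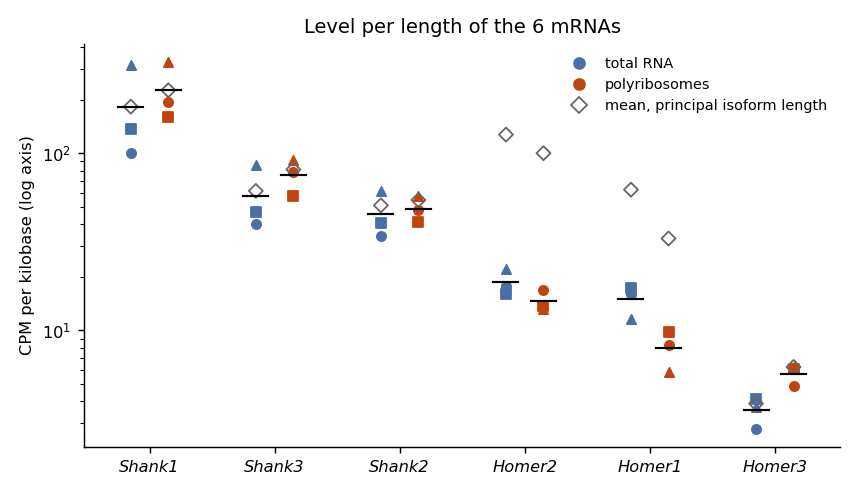
CPM per kilobase of merged exons (log axis) for each gene in total RNA (blue) and on polyribosomes (orange). Filled markers are libraries, shaped by preparation, black lines are means of 3, and open diamonds are means per kilobase of the principal isoform. Shank1 lies highest and Homer3 lowest, and the diamonds of Homer1 and Homer2 lie well above their points.

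Counts were deposited per gene, so the forms of 1 gene cannot be told apart. Homer1 has 11 complete coding transcripts with coding sequences of 540 to 1110 bases, and the values above sum Homer1a with the long forms. Some exons overlap those of another gene on the opposite strand. The study's methods describe strand-specific libraries, but whether strand was used in counting is not given in the sources used here. Homer3 shares 874 exonic bases with Ddx49, Homer2 shares 525 with Gm44570, Shank1 shares 339 with 1700008O03Rik and Shank3 shares 271 with Gm15609 (Gencode vM21). The values of these 4 genes are uncertain to that extent.

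Homer binding partners mostly had negative log2 fold changes, 9 of 11. Of 11 Homer ligands, 2 were lower on polyribosomes in the unpaired fit and none was higher, against 2.36% and 0.71% of all genes tested. Their median log2 fold change was -0.4 against 0.0 over all genes tested. With the GC and length offset this median was -0.17, and -0.15 with the block as well. Ryr3, a ryanodine receptor that releases calcium from internal stores, stood at 85.7, 70.0 and 104 CPM in total RNA and 38.3, 42.6 and 38.7 CPM on polyribosomes. Its log2 fold change was -1.09 (SE 0.18, adjusted p = 0.00293). Dnm3, the dynamin that Homer ties to the endocytic zone of the spine, stood at 99.6, 96.8 and 88.2 CPM in total RNA and 50.5, 51.4 and 51.1 CPM on polyribosomes, a log2 fold change of -0.9 (SE 0.15, adjusted p = 0.00349). In both genes every total RNA library was above every polyribosome library. Both passed without replicate 3 of either group, and neither passed without replicate 1 or 2 of either group, where Ryr3 lay between -1.23 and -1.07 and Dnm3 between -0.91 and -0.88. With the block both passed without any 1 of the preparations, Ryr3 at -1.04, -1.27 and -0.96 and Dnm3 at -0.87, -0.89 and -0.96. Ryr2 was at -0.77 (adjusted p = 0.0123) and passed with the block at -0.79 (adjusted p = 1.34e-07), also without any 1 preparation. With the block and the GC and length offset, these 3 genes still passed, against 15.0% of all genes tested in either direction. Ryr3 was then at -0.8, Dnm3 at -0.57 and Ryr2 at -0.51.

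Grm5 and Itpr1, both receptors that Homer is known to hold, did not pass in any of these fits. Grm5, the main group I metabotropic glutamate receptor of the forebrain, had mean levels of 399 CPM in total RNA and 373 CPM on polyribosomes (log2 fold change -0.1). Itpr1, an inositol trisphosphate receptor, had mean levels of 1090 and 936 CPM (-0.22). Agap2, which encodes PIKE, a GTPase that links Homer to phosphoinositide 3-kinase, was higher with the block (0.51, adjusted p = 0.001) but not without preparation 1 (0.28) or 2 (0.61), and was at 0.17 with the offset added (adjusted p = 0.386).

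Of the 8 PSD-95 and SAPAP genes, which connect Shank to the receptors, none passed in the unpaired fit. With the block 2 were higher and 1 was lower, against 11.8% higher and 13.2% lower over all genes tested. Dlgap3, a SAPAP protein, stood at 271, 426 and 697 CPM in total RNA and 737, 567 and 882 CPM on polyribosomes (log2 fold change 0.73 with the block, adjusted p = 4.62e-06). It did not pass without preparation 1 (0.36, adjusted p = 0.112) or with the offset added (0.3, adjusted p = 0.0679). Like the Shank genes, it was highest in replicate 3 in both groups. Dlg4, which encodes PSD-95, stood at 628, 782 and 853 CPM in total RNA and 1090, 1000 and 917 CPM on polyribosomes, without overlap. Its log2 fold change was 0.42 with the block (adjusted p = 0.00553), 0.22 and 0.46 without preparation 1 or 2, neither of which passed, and 0.76 with the GC and length offset added (adjusted p = 1.96e-06). Dlg1, which encodes SAP97, was lower with the block (-0.54, adjusted p = 2.75e-04) and did not pass with the offset (-0.18, adjusted p = 0.25) or without preparation 2 (-0.57).

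Among 12 partners of Shank, none passed in the unpaired fit, and their median log2 fold change was 0.07. With the block 1 was higher and 1 lower, against 11.8% higher and 13.2% lower over all genes tested. With the block, Dbnl, the actin-binding protein Abp1, was higher (0.49, adjusted p = 0.00675), at 27.5 CPM in total RNA and 39.4 CPM on polyribosomes, but did not pass once a preparation was left out (0.46, 0.59 and 0.43) or with the offset added (0.18, adjusted p = 0.364). Lrrc7, which encodes densin-180, was lower (-0.6, adjusted p = 5.41e-05), with means of 259 and 168 CPM, but not without preparation 2 (-0.66, adjusted p = 0.0139) or with the offset added (-0.36, adjusted p = 0.0131). Cttn, which encodes cortactin, and Baiap2, which encodes IRSp53, did not pass, with means of 51.5 and 63.2 CPM and of 108 and 107 CPM. Of 18 other postsynaptic scaffold and signalling genes tested, none passed unpaired, and with the block 5 were lower and none higher, against 13.2% lower and 11.8% higher over all genes. Those 5 were Lin7a (-0.78), Tanc2 (-0.7), Grip1 (-0.6), Anks1b (-0.54) and Akap5 (-0.42). Lin7a and Tanc2 also passed with the offset added.

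**Figure D5:**
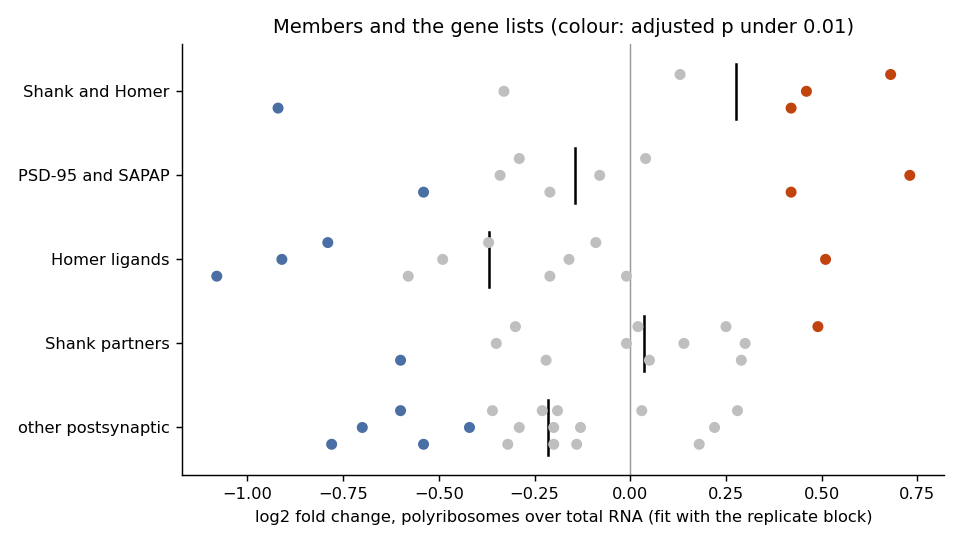
Log2 fold change of polyribosomes over total RNA in the fit with the replicate block, for the 6 genes and 4 lists of postsynaptic genes. Each point is a gene, coloured orange (higher) or blue (lower) where the adjusted p was under 0.01 and grey otherwise, and black bars are medians. Points of the Homer ligands lie mostly to the left, with Ryr3, Dnm3 and Ryr2 in blue and Agap2 in orange.

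Among genes with a mean of at least 100 counts, those whose log2 CPM followed each member most closely over the 6 libraries were as follows, as a description only, since all share libraries and depth. Shank1 was followed by Cep170b (Pearson's r 0.998) and Tnrc18 (0.995), Shank2 by Mllt6 (0.992) and Gltscr2 (0.989), and Shank3 by Mllt1 and the Homer ligand Agap2 (both 0.993). Homer1 was followed by Nrsn1 and Mbnl1 (both 0.995), Homer2 by Nvl (0.989) and 4930402H24Rik (0.985), and Homer3 by Kcnc4 (0.996) and Gpr162 (0.993). Within the families, the Shank genes correlated at 0.94 to 0.99 with each other, though each was followed as closely by the genes named above. Homer1 correlated at 0.46 with Homer2 and at -0.78 with Homer3, and Homer2 at -0.74 with Homer3.

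Summed levels of astrocyte and microglia markers were higher in every polyribosome library than in any total RNA library, although none of these genes passed in the unpaired fit. The summed level of 8 astrocyte markers was 34200 to 40100 CPM in total RNA and 44400 to 48700 CPM on polyribosomes, with a positive log2 fold change in 8 of 8 and 5 higher with the block. Over all genes tested, 11.8% were higher and 13.2% lower with the block. Most of the astrocyte sum was Slc1a2, with means of 27900 and 32000 CPM. Its log2 fold change was 0.2 with the block (adjusted p = 0.27) and 0.58 with the offset added (adjusted p = 0.0085). The 8 microglia markers summed to 597 to 839 and 939 to 1080 CPM, positive in 8 of 8, with 4 higher with the block. The 7 oligodendrocyte markers summed to 7900 to 11100 and 11000 to 14800 CPM, with overlap, positive in 7 of 7. Of these, 1, the myelin gene Cldn11, passed in the unpaired fit, against 0.71% of all genes tested, and 4 passed with the block. The 6 endothelial markers summed to 273 to 313 and 260 to 480 CPM, with overlap, and 1 was higher with the block. Markers of excitatory neurons summed to 5170 to 6830 CPM in total RNA and 5860 to 7760 CPM on polyribosomes, and those of inhibitory neurons to 424 to 664 and 529 to 998 CPM, so neuronal sums overlapped between groups. With the block, 3 of 7 excitatory markers were higher and 2 lower, and 3 of 6 inhibitory markers were higher and 2 lower. The median unpaired log2 fold change was 0.03 for excitatory and 0.42 for inhibitory markers. It was 0.57 for astrocyte, 0.43 for oligodendrocyte and 0.4 for microglia markers. Of the 5 Purkinje cell markers, which summed to 855 to 1540 CPM in total RNA and 745 to 1280 CPM on polyribosomes, Pcp2 and Ppp1r17 were near 0, at 0.431 and 0.0828 CPM in total RNA. The other 3, Car8 (27.7 CPM), Calb1 (28.8 CPM) and Itpr1 (1090 CPM), passed the expression filter, and Calb1 and Itpr1 are also known from forebrain neurons. The part of these cell types in the Shank and Homer values was not tested.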

How the data were processed

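RNA of synaptoneurosomes was measured in 6 libraries, 3 of unstimulated total RNA and 3 of polyribosomes after stimulation. The authors depleted ribosomal RNA and sequenced strand-specific libraries. They mapped reads with STAR 2.5.2b to GRCm38 (mm10) and counted them per gene on Gencode vM6 with HTSeq, per the labels and the study's methods. The authors deposited raw counts, as whole numbers, for 21958 protein-coding genes. Their table also holds the authors' DESeq2 results (mean, log2 fold change, standard error, statistic and p-values), which were not used.

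Counts were normalized by TMM and filtered with filterByExpr (12255 genes kept) in edgeR 4.0.16 (R 4.3.3). The groups were compared by its quasi-likelihood test without further terms, with p-values adjusted by Benjamini-Hochberg at 0.01. Code was tested on simulated data. CPM and log2 CPM (prior count 2) came from the same factors. GC content and lengths came from Gencode vM21 basic (99.9% of genes tested). The offset used splines with 5 degrees of freedom per library, on GC content of the longest transcript and on merged exon length. DESeq2 1.42.0, RLE, upper-quartile and total count scaling, no filter, the replicate block, the offset and leaving out each library were alternatives. Ratios were compared by exact permutation tests (scipy 1.17.1).

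The methods divide each preparation into aliquots, and deviations of same-numbered libraries from their group means correlated at 0.37, 0.26 and 0.38 across genes, and same-numbered libraries were therefore treated as pairs. Nothing states that the preparations came from different days.

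The members and gene lists were chosen with earlier results of these data known. Named genes were the 6 members, any gene of the PSD-95 and SAPAP, Homer ligand and Shank partner lists, genes of other lists past the threshold in a fit or with the 2 largest changes, and for each member the 2 genes most correlated with it (mean count at least 100). The symbol Begain matched more than 1 gene and was left out. Values of 1 gene of the lists are not reported here. P-values measure the spread between pooled preparations, which edgeR moderates over all genes tested, so they do not rest on each gene's own spread alone. Counts were made without molecular identifiers.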

Additional observations from a re-analysis of the deposited data

How the results depend on the processing

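Alternatives that left out both libraries of 1 preparation, tested the replicate term or used principal isoform lengths were chosen after seeing the data. Unpaired, Homer1 passed the threshold with DESeq2 (-0.91), without the expression filter (-0.9) and without total RNA replicate 3 (-1.07), but not with the GC and length offset. With the replicate block, Shank1 was at 0.42, Shank3 at 0.46, Homer1 at -0.92 and Homer3 at 0.68, all past the threshold. The block without preparation 3 gave 0.59, 0.63, -0.9 and 0.66, also past it, and Homer1 passed without preparation 1 (-0.92) and without preparation 2 (-0.97). The block changed no other call of a member. Directions reversed for Shank1 without polyribosome replicate 3 (-0.04), for Shank2 without polyribosome replicate 3 (-0.02), without total RNA replicate 1 (-0.07) and with the block without preparation 1 (-0.06), and for Homer2 with the offset (0.06) and with block and offset (0.07). Leaving out 1 library gave -0.04 to 0.94 for Shank1, -0.07 to 0.38 for Shank2, 0.2 to 0.81 for Shank3, -1.1 to -0.75 for Homer1, -0.46 to -0.2 for Homer2 and 0.5 to 0.89 for Homer3. The causes were not tested.

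Over all genes, 87 were higher in the unpaired fit, against 321 with DESeq2, 42 with total counts only, 476 without filter, 1441 with the block, 24 with the offset, 968 with both, and 0 to 61 with 1 library left out (0 without total RNA replicate 2, 2 without total RNA replicate 1, 11 without polyribosome replicate 2). The 289 lower genes became 566 without filter, 1622 with the block, 94 with the offset, 866 with both, and 22 to 208 with 1 library left out (22 without total RNA replicate 2, 46 without polyribosome replicate 2). Total counts only moved the median of all genes to -0.11. Among the 31 binding partners, 0 were higher unpaired, 4 with the block, 1 with block and offset, and 0 with any library left out. Of these, 2 were lower unpaired, 4 with DESeq2, 5 with the block, 1 with the offset and 0 to 2 with 1 library left out. The depth of total RNA replicate 3, 1044955 counts, limits Homer3 most, at 11 counts there.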

Other observations

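Among 8 dendritic mRNAs, none passed in the unpaired fit, and 7 of 8 had a positive log2 fold change (median 0.14). With the replicate block, 2 of the 8 were higher on polyribosomes, against 11.8% of all genes tested. These were Nrgn, which encodes the calmodulin-binding protein neurogranin (0.92, adjusted p = 8.62e-09), and Actb, which encodes beta-actin (0.57, adjusted p = 1.46e-04). Nrgn also passed with the GC and length offset added (adjusted p = 0.00455), and Actb did not (adjusted p = 0.015). Of 12 immediate early genes, none passed unpaired and their median was -0.1. With the block 1 of the 12 was higher, against 11.8% of all genes tested. It was the transcription factor gene Egr4 (0.79, adjusted p = 0.00586), at means of 6.4 CPM in total RNA and 11.7 CPM on polyribosomes. The adjusted p of Egr4 was 0.983 with the offset added.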
